A study of Mus musculus with 8 samples.

Results

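The solute carrier (SLC) transporters of microglia were compared between diseased and control mice in 8 RNA sequencing libraries. The genes were the protein-coding mouse genes whose symbol begins with Slc and a digit. Left out were 9 of them: Slc2a1, Slc2a3, Slc2a5, Slc16a1, Slc16a3, Slc11a1, Slc11a2, Slc40a1 and Slc1a2. The rule gave 362 genes, and all 362 were among the 41388 gene identifiers in the files. Of these, 184 had at least 20 counts in at least 2 libraries and are described here. The other 178 did not reach that level, and 72 of the 362 had 0 counts in every library. A count of 0 allows up to 0.607 CPM (the counts of a gene scaled to a common library size) in the smallest library and 0.324 in the largest, taking 3 counts as the limit, which covers counting error only.

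The cells were microglia isolated ex vivo with CD11b, CD45 and CD11c from C57BL/6 mice. One group was CD11c+ microglia from mice with neuromyelitis optica (NMO), an autoimmune inflammation of the central nervous system (n = 2). The second was CD11c- microglia from NMO mice (n = 3), and the third was microglia from control mice (n = 3). The sample titles describe the control cells as total microglia from unmanipulated mice, whereas the population label gives them as CD11c negative. The sources used here do not give how NMO was induced, the sex of the mice or whether libraries came from separate mice. The p-values therefore measure the spread between these libraries, which may be technical.

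Solute carriers are membrane proteins that move sugars, amino acids, ions, metals, nucleotides, lipids and vitamins across the plasma membrane and the membranes of lysosomes, mitochondria, the endoplasmic reticulum and the Golgi. They work as uniporters, symporters and exchangers, and some need a partner protein to reach the membrane. In microglia and other macrophages they feed glycolysis and protein synthesis, and they export the products of digestion from the lysosome.

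Total counts ranged from 4943207 (CD11c+ replicate 1) and 5914412 (CD11c+ replicate 2) through 6437516 to 6819662 for NMO CD11c- up to 7500815 to 9246061 for control. The microglial marker P2ry12 stood at 1950 and 2760 CPM in CD11c+, 2787 to 3854 CPM in NMO CD11c- and 4619 to 4910 CPM in controls. Cx3cr1 stood at 4564 and 4543, 4864 to 6299 and 7115 to 7810 CPM in the same order, and Tmem119 at 2094 and 1623, 1885 to 2135 and 2439 to 2791 CPM. All 3 were detected at these levels in every library and were below every control in every NMO library, and the part of this shift in the results was not tested. T cell markers summed to at most 0.978 CPM and neuronal markers to at most 2.54 CPM. Dendritic cell markers summed to 18.0 and 16.4 CPM in CD11c+, 14.1 to 17.8 CPM in NMO CD11c- and 7.58 to 11.7 CPM in controls. Border-associated macrophage markers summed to 122 and 56.2, 104 to 131 and 46.7 to 113 CPM in the same order. The part of either list in the results was not tested. Itgax, which encodes CD11c, stood at 188 and 181 CPM in the CD11c+ libraries and between 30.6 and 41.3 CPM in the other 6. CD11c+ replicate 1 stood apart. Across 11946 genes, its deviation from the mean of all libraries rose with the GC content of the gene (Spearman correlation 0.592, a description), against -0.299 to -0.0378 in the other 7 libraries. Neutrophil markers also differed: 10 of 10 markers summed to 15.3 and 19.7 CPM in CD11c+, 2067 to 10682 CPM in NMO CD11c- and 864 to 1774 CPM in controls. Titles number the controls 21 to 23 and the NMO samples 7 to 12. No batch is labelled, so handling cannot be told apart from disease. In sorted bulk cells, fewer cells that transcribe a gene and less RNA per cell cannot be told apart either.

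Most solute carrier genes changed little, and a few changed in NMO. Slc2a6, a glucose transporter of the GLUT family, had the largest change among called genes: it rose in both NMO subsets. Slc35c1, the Golgi transporter of GDP-fucose, also rose in both. Slc1a4, a neutral amino acid exchanger, Slc39a12, a zinc importer, and Slc24a3, a sodium-calcium-potassium exchanger, fell in both. Among these genes, Slc2a6 alone kept both calls with any 1 library left out. The call of Slc24a3 in CD11c+ was just under the limit (adjusted p 0.0497). Calls rest on edgeR's quasi-likelihood test of 12002 genes, with p-values adjusted by Benjamini and Hochberg's method and called below 0.05; all 184 solute carrier genes were tested.

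Of the 184 genes, 7 were called in NMO CD11c- against control, 4 higher and 3 lower, beside 3.72% called among all genes tested (3% higher and 0.717% lower). In NMO CD11c+ against control 15 were called, 11 higher and 4 lower, beside 10.2% of all genes (6.85% higher and 3.36% lower). The shares of solute carriers called, 3.80% and 8.15%, lie near these backgrounds. Both comparisons use the same control libraries, and 5 genes were called in both. Between NMO CD11c+ and CD11c- 0 of 184 were called, beside 0.283% of all genes (0.1% higher and 0.183% lower). There 28 genes had an unadjusted p under 0.05, against 15.4% of all genes, and DESeq2 called 1 higher (Slc39a4) and 1 lower (Slc25a24). Over the 3 comparisons 17 solute carrier genes were called at least once (11.1% of all genes), and 6 of them reached a log2 fold change of 1 in size.

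The median log2 fold change of the 184 genes was 0.02 in NMO CD11c- against control, 0.03 in NMO CD11c+ against control and 0.01 between the subsets. Over all genes tested the medians were 0.00, 0.01 and 0.01. The log2 fold change was smaller than 0.5 in size for 162 of 184 genes (88.0%) in NMO CD11c- against control, beside 84.4% of all genes. In NMO CD11c+ against control it was for 155 (84.2%, beside 75.1%), and between the subsets for 164 (89.1%, beside 84.0%). Groups did not overlap for 69 genes in NMO CD11c- against control, 37 higher and 32 lower, beside 33.8% of all genes. They did not overlap for 85 in NMO CD11c+ against control (47 higher and 38 lower, beside 43.7%) and for 56 between the subsets (31 higher and 25 lower, beside 28%). As a share of each library, the 184 genes took 1.28% to 1.41% of counts.

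**Figure D1:**
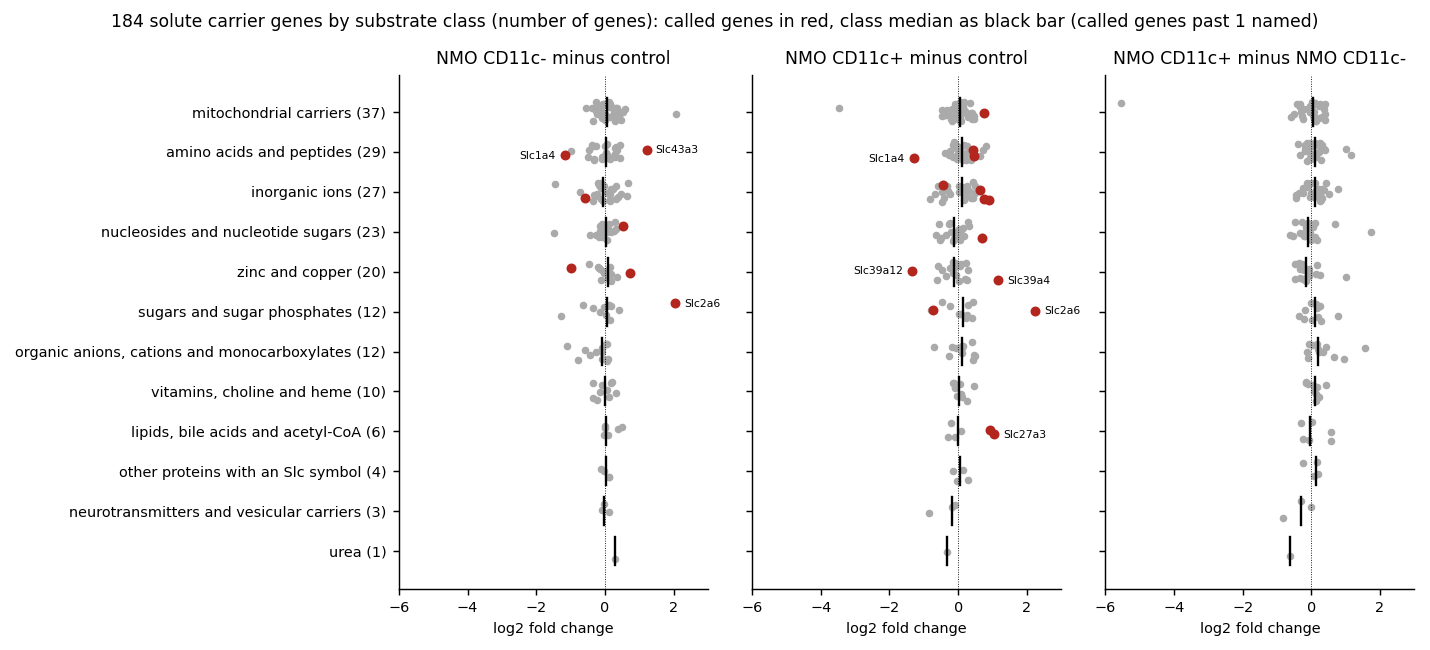
Log2 fold change of the 184 solute carrier genes (x axis, log2) by substrate class (y axis, number of genes in parentheses) in the 3 comparisons; each point is 1 gene, red points passed an adjusted p under 0.05, black bars are class medians, and called genes past 1 in size are named. The class medians lie near 0 in the larger classes, 15 genes are red in NMO CD11c+ against control, 7 in NMO CD11c- against control and 0 between the subsets.

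These counts moved when single libraries were left out. Without CD11c+ replicate 2, so that CD11c+ was represented by the library with the GC trend, 31 genes were called higher and 17 lower between the subsets, beside 24.2% of all genes, and 33 higher and 19 lower in NMO CD11c+ against control, beside 32.7%. Without CD11c+ replicate 1 the counts were 0 and 0 between the subsets (0.0322% of all genes), and 12 higher and 4 lower against control (7.06%). Leaving out CD11c+ replicate 1 or 2 gave 14 higher and 10 lower in NMO CD11c- against control, beside 9.59% and 9.48% of all genes. Leaving out control replicate 1, 2 or 3 gave 5, 5 or 4 higher and 2 lower each in NMO CD11c+ against control, beside 4.32%, 4.39% and 4.09% of all genes. In NMO CD11c- against control it gave 1 higher and 1 lower each, beside 1.18%, 1.43% and 1.45%. Leaving out NMO CD11c- replicate 1, 2 or 3 gave 2 higher and 1 lower, 3 higher and 0 lower, and 2 higher and 1 lower in NMO CD11c- against control, beside 1.98%, 1.58% and 3.08%. Without NMO CD11c- replicate 1 or 3 2 genes each were called lower in NMO CD11c+ against control, beside 7.06% and 6.8% of all genes called in either direction. Between the subsets, 1 gene, Slc25a24, was called lower without NMO CD11c- replicate 2 or 3, beside 0.663% and 0.655%. In any fit with 1 CD11c+ library, that library is assumed to vary as the other groups do.

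The sugar and sugar phosphate transporters kept 12 of 26 genes, with 1 called higher in NMO CD11c- against control, and 1 higher and 1 lower in NMO CD11c+ against control. Class medians were 0.05 and 0.15 on the log2 scale. Slc2a6 (ENSMUSG00000036067, chr2:27021363-27027998, minus strand, GRCm38) encodes GLUT6, a hexose transporter found in intracellular membranes of macrophages. It stood at 28 and 26.8 CPM in CD11c+, 20.1, 25.9 and 25.3 CPM in NMO CD11c-, and 5.75, 7.07 and 4.32 CPM in control replicates 1 to 3. Every NMO library was above every control library, and the CD11c+ libraries were both above the NMO CD11c- ones. The means were 27.4 ± 0.853 (SD, n = 2), 23.7 ± 3.21 (SD, n = 3) and 5.71 ± 1.38 (SD, n = 3) CPM. The log2 fold change was 2.04 (SE 0.189, adjusted p 0.000339) for NMO CD11c- and 2.25 (SE 0.205, adjusted p 0.000205) for NMO CD11c+ against control. The 2 subsets differed by 0.21 (SE 0.191, adjusted p 0.595). Slc2a6 was called against control in both comparisons with any 1 of the 8 libraries left out, at adjusted p values up to 0.00443 and 0.00234.

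The promoter window of Slc2a6, the gene with the largest called change, runs from 250 bases before to 50 after its RefSeq start site (GRCm38.p6, chr2:27027949-27028248, minus strand). None of the 4 motifs searched lies in it, and it holds 22 CpG and 64.7% GC, against medians of 7 CpG and 52.7% GC over all 32851 such windows.
Slc2a6: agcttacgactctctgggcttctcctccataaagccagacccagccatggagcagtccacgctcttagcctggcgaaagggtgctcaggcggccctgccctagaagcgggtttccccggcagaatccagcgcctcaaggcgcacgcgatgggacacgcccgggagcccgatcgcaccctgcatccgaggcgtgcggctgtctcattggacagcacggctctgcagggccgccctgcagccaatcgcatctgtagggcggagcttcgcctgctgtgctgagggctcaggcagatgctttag

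Of the 17 called genes, 12 had a promoter window in the RefSeq table, with 19 windows in all (Slc26a11, Slc39a14, Slc39a4, Slc43a3 and Slc6a6 had no entry). Both strands were searched for the interferon-stimulated response element core (GAAA, 2 bases of any kind, GAAA), the gamma-activated sequence TTCNNNGAA, the AP-1 site TGACTCA and the E-box GTCACGTG of the lysosomal CLEAR type. They occur in 3.44%, 8.30%, 5.20% and 2.25% of all windows. The median called window had 61.3% GC and 17 CpG. Among the called genes 1 held the response element core, 1 the E-box and none the other motifs. Among the 141 of 184 solute carrier genes with a window, 5 held the response element core, 9 the gamma-activated sequence, 6 the AP-1 site and 9 the E-box. These are counts of genes with a match in any of their windows. The percentages above are shares of single windows, so the measures are not alike. The windows with a match are those of Slc37a3 and Slc25a22, printed with those genes. A match is a description of letters and not a measured binding site.

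Slc37a3 belongs to a family of sugar phosphate exchangers and takes part in the release of bisphosphonates from lysosomes. Its levels were 21.9 and 12.9 CPM in CD11c+, 23.5, 21.1 and 21.8 CPM in NMO CD11c-, and 29.2, 29.5 and 26.4 CPM in controls. All 5 NMO libraries were below the controls, and CD11c+ replicate 2 was the lowest. It fell in NMO CD11c+ against control (log2 -0.72, SE 0.199, adjusted p 0.0483). In NMO CD11c- the difference was -0.36 (adjusted p 0.286). The call in CD11c+ was lost with any 1 library other than CD11c+ replicate 1 left out (CD11c+ replicate 2, and each of the 3 NMO CD11c- and 3 control replicates), at adjusted p 0.0608 to 0.130, and without CD11c+ replicate 2 the difference was -0.38.

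The window of Slc37a3 (GRCm38.p6, chr6:39377658-39377957, minus strand) is shown for its E-box, in capitals, which begins 15 bases before the start site.
Slc37a3: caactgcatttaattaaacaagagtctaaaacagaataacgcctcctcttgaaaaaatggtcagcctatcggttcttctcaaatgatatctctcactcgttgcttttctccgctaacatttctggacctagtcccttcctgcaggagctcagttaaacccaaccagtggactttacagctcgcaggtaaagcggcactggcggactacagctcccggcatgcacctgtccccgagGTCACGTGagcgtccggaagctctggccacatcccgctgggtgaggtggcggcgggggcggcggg

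The amino acid and peptide transporters were the second largest class, with 29 of 57 genes kept and class medians of 0.03 in NMO CD11c- and 0.11 in NMO CD11c+ against control. In NMO CD11c- 1 was called higher and 1 lower, and in NMO CD11c+ 2 higher and 1 lower. Slc1a4 (chr11:20302180-20332713, minus strand) encodes ASCT1, an exchanger of alanine, serine, cysteine and threonine. It stood at 10.6 and 10.2 CPM in CD11c+, 11.4, 12.0 and 10.7 CPM in NMO CD11c-, and 35.6, 20.8 and 20.4 CPM in controls. The 5 NMO libraries lay close together and below every control, and control replicate 1 was far above the other controls. Slc1a4 fell by 1.17 on the log2 scale (SE 0.219, adjusted p 0.0183) in NMO CD11c- and by 1.3 (SE 0.261, adjusted p 0.0141) in NMO CD11c+. The second call held with each library left out (adjusted p up to 0.0489). The first was lost without NMO CD11c- replicate 1, 2 or 3, at adjusted p 0.0639, 0.0619 and 0.0585.

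Immediate-early genes, such as Fos and Egr1, moved with part of this pattern. The sum of 8 of them was 40314, 18886 and 21845 CPM in controls 1 to 3, 5733, 11320 and 15322 CPM in NMO CD11c-, and 6698 and 30585 CPM in CD11c+. Control replicate 1 was highest both in this sum and in Slc1a4. CD11c+ replicate 2, whose sum lay within the control range, had the lowest Slc1a4 level. The sum of the endothelial markers was also higher in controls (48.9 to 59.3 CPM) than in NMO CD11c- (23.0 to 32.5) and CD11c+ (29.4 and 31.9). It was mostly Pecam1, at 47.47 to 57.85 CPM in controls and at most 31.44 CPM in the NMO libraries. Flt1 went the other way in CD11c+, at 2.86 and 4.404 CPM against 0.9641 to 1.468 CPM in controls. In NMO CD11c- its range overlapped that of controls. Tek and Ly6c1 were at 0 in controls and in CD11c+. The part of either list in the genes that fell was not tested.

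Slc43a3 is grouped with amino acid carriers by its family number and is known as a carrier of purine nucleobases. It stood at 10.0 and 14.5 CPM in CD11c+, 16.6, 20.9 and 10.9 CPM in NMO CD11c-, and 6.85, 7.39 and 6.54 CPM in controls. All NMO libraries were above the controls, and NMO CD11c- replicate 2 was highest. The gene rose in NMO CD11c- (log2 1.22, SE 0.244, adjusted p 0.0241). In NMO CD11c+ the difference was 0.82 (adjusted p 0.0881). The call was lost without NMO CD11c- replicate 1 or 2 or without any 1 control, replicates 1, 2 and 3, at adjusted p 0.0729 to 0.115. Neutrophil markers were also highest in NMO CD11c- replicate 2 (10682 CPM); they stood at 15.3 and 19.7 CPM in CD11c+, and their part in the result was not tested.

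Slc6a6, the taurine transporter, was among the more abundant genes, at 409 and 404 CPM in CD11c+, 387, 362 and 358 CPM in NMO CD11c-, and 292, 301 and 303 CPM in controls. The 3 groups did not overlap. A rise was called in NMO CD11c+ (log2 0.45, SE 0.103, adjusted p 0.0250), and the difference in NMO CD11c- was 0.31 (adjusted p 0.104). Slc16a10, the aromatic amino acid transporter TAT1, stood at 49.6 and 56.0 CPM in CD11c+, 41.2, 39.3 and 41.0 CPM in NMO CD11c-, and 40.7, 37.0 and 36.4 CPM in controls. Both CD11c+ libraries were above the other 6, whose groups overlapped. Slc16a10 rose in NMO CD11c+ against control (log2 0.48, SE 0.110, adjusted p 0.0252). Both calls were lost without NMO CD11c- replicate 3 and without control replicate 1, 2 or 3, at adjusted p 0.0563 to 0.0955 for Slc6a6 and 0.0523 to 0.0968 for Slc16a10.

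The zinc and copper transporters kept 20 of 26 genes. Class medians were 0.08 in NMO CD11c- and -0.11 in NMO CD11c+ against control, and each comparison had 1 gene called higher and 1 lower. All 3 called genes are ZIP importers of the Slc39 family, which bring zinc, and in some cases iron and manganese, into the cytosol. Slc39a4 (chr15:76612383-76617384, minus strand), the zinc importer known from intestinal uptake, stood at 28.2 and 24.1 CPM in CD11c+, 12.7, 13.4 and 13.1 CPM in NMO CD11c-, and 9.17, 13.9 and 11.8 CPM in controls. Both CD11c+ libraries were above all 6 others, and the NMO CD11c- and control groups overlapped. It rose in NMO CD11c+ against control (log2 1.16, SE 0.184, adjusted p 0.00398), and this call held with each library left out. Between the subsets the difference was 1.0 (SE 0.185, adjusted p 0.0579), which did not pass, and DESeq2 called it. In NMO CD11c- against control the difference was 0.17 (adjusted p 0.667).

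Slc39a14, a carrier of zinc, iron and manganese, was highest in NMO CD11c-, at 55.5, 53.0 and 58.5 CPM. It stood at 33.3 and 46.5 CPM in CD11c+ and at 35.5, 34.8 and 30.1 CPM in controls. The NMO CD11c- libraries were above all others, and CD11c+ overlapped the controls. It rose in NMO CD11c- against control (log2 0.73, SE 0.132, adjusted p 0.0146). The difference of NMO CD11c+ from control was 0.26 (adjusted p 0.285) and that between the subsets -0.48 (SE 0.151, adjusted p 0.207). Leaving out replicate 1 or 3 of NMO CD11c-, or any 1 control (replicates 1, 2 and 3), ended the call, at adjusted p 0.0517 to 0.0837.

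Slc39a12 (chr2:14388316-14494977, plus strand), a zinc importer known from the brain, stood at 7.76 and 8.10 CPM in CD11c+, 12.4, 7.38 and 10.6 CPM in NMO CD11c-, and 25.1, 16.5 and 19.1 CPM in controls. Every control was above every NMO library, and the 2 NMO subsets overlapped. It fell by 0.99 on the log2 scale (SE 0.216, adjusted p 0.0341) in NMO CD11c- and by 1.34 (SE 0.263, adjusted p 0.0121) in NMO CD11c+. The second call held with each library left out, at adjusted p up to 0.0468. The first was lost without any 1 control (replicates 1, 2 and 3) and without replicate 2 or 3 of NMO CD11c-, at adjusted p 0.0593 to 0.163. Astrocyte markers summed to 2.62 to 4.40 CPM in controls and 2.64 to 7.97 CPM in NMO, and their part in the result was not tested.

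**Figure D2:**
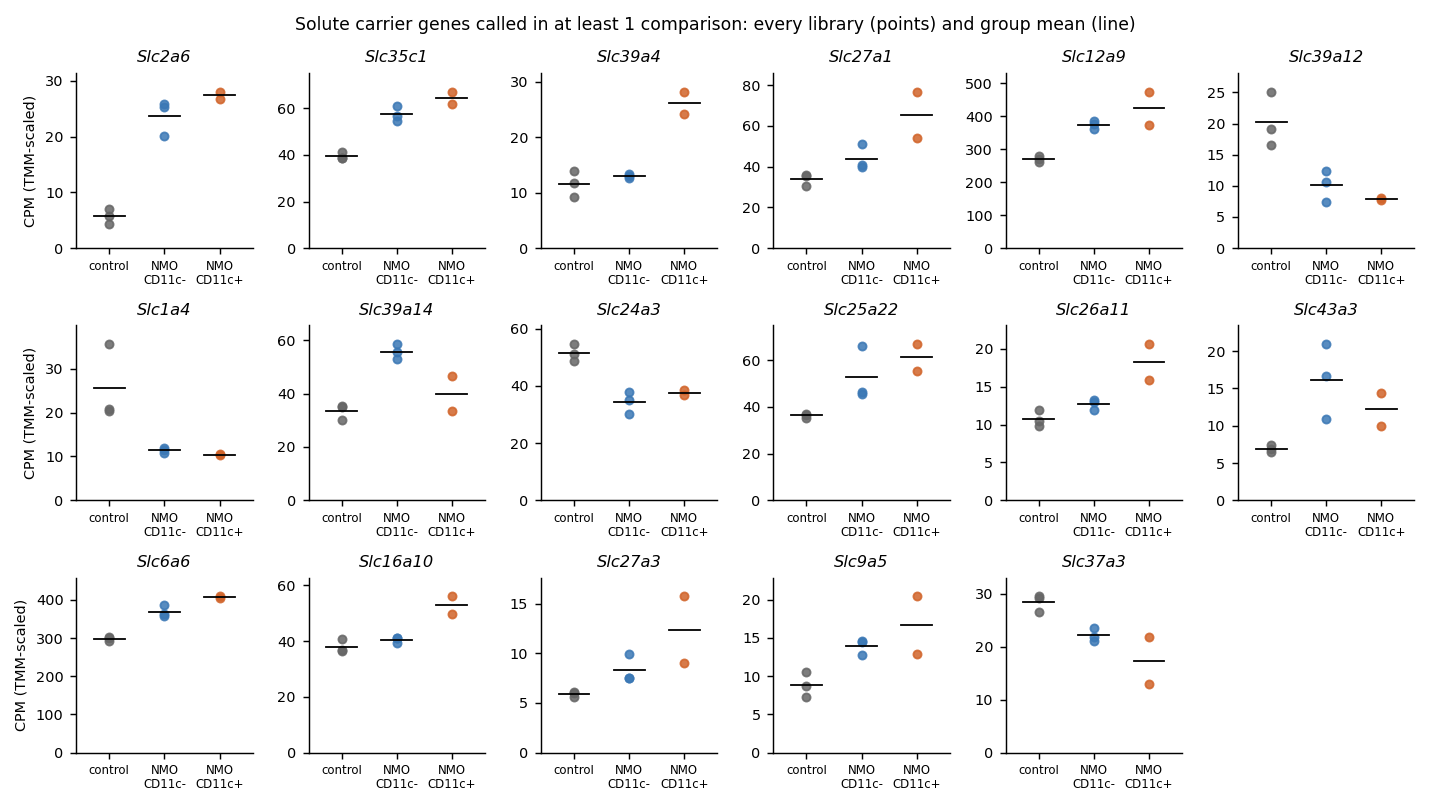
Level of the 17 called solute carrier genes in every library (y axis, CPM scaled by TMM, from 0; points are libraries and lines group means) in control (n = 3), NMO CD11c- (n = 3) and NMO CD11c+ (n = 2). Slc2a6 is between 4.32 and 7.07 CPM in controls and between 20.1 and 28 CPM in the NMO libraries, while Slc1a4, Slc39a12 and Slc24a3 are highest in controls.

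Among 34 transporters of nucleosides and nucleotide sugars 23 were kept, with class medians of 0.02 and -0.12 against control, and Slc35c1 was called higher in both NMO groups. Slc35c1 (chr2:92452764-92460538, minus strand) carries GDP-fucose into the Golgi, where fucose is added to glycoproteins. It stood at 67.0 and 62.0 CPM in CD11c+, 56.7, 54.5 and 61.1 CPM in NMO CD11c-, and 38.5, 41.4 and 38.7 CPM in controls. The 3 groups did not overlap. The log2 fold change was 0.54 (SE 0.0936, adjusted p 0.0124) for NMO CD11c- and 0.70 (SE 0.104, adjusted p 0.00275) for NMO CD11c+, and the subsets differed by 0.17 (adjusted p 0.436). The second call held with each library left out. The first was lost without NMO CD11c- replicate 3 or control replicate 1, 2 or 3, at adjusted p 0.05005 to 0.0740.

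Of 16 lipid, bile acid and acetyl-CoA carriers 6 were kept, and 2 fatty acid transport proteins were called higher in NMO CD11c+ against control. The class median was -0.01 in that comparison. Slc27a1, also called FATP1, stood at 76.6 and 53.9 CPM in CD11c+, 40.7, 39.8 and 51.1 CPM in NMO CD11c-, and 35.5, 30.4 and 36.1 CPM in controls. No group overlapped another, and CD11c+ replicate 1 was highest. Its rise in NMO CD11c+ was called (log2 0.94, SE 0.171, adjusted p 0.00860) and held with each library left out, with a log2 fold change of 0.67 to 1.17. In NMO CD11c- the difference was 0.37 (adjusted p 0.233).

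Slc27a3, an acyl-CoA synthetase of the same family, stood at 15.7 and 8.98 CPM in CD11c+, 7.48, 9.94 and 7.49 CPM in NMO CD11c-, and 5.99, 5.57 and 6.15 CPM in controls. The 2 CD11c+ libraries were far apart, and replicate 2 lay within the NMO CD11c- range. It rose in NMO CD11c+ against control (log2 1.06, SE 0.258, adjusted p 0.0313). In NMO CD11c-, where every library was also above the controls, the difference was 0.49 (adjusted p 0.296). Without CD11c+ replicate 1 the difference was 0.60 (adjusted p 0.196), and the call was also lost without control replicate 1, 2 or 3 (adjusted p 0.0881 to 0.102).

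Inorganic ion transporters formed the class with the most genes in the rule, 60, of which 27 were kept. In NMO CD11c+ against control 3 were called higher and 1 lower, with a class median of 0.12, and in NMO CD11c- 1 was called lower, with a median of -0.05. Slc12a9, a member of the cation-chloride cotransporter family, was an abundant gene, at 473 and 374 CPM in CD11c+, 375, 360 and 385 CPM in NMO CD11c-, and 279, 271 and 261 CPM in controls. Every NMO library was above every control, and the NMO subsets overlapped. Against control, CD11c+ rose (log2 0.65, SE 0.123, adjusted p 0.0107). In NMO CD11c- the difference was 0.47 (SE 0.112, adjusted p 0.0501). The call in CD11c+ was lost without control replicate 3 (adjusted p 0.0542). After the GC and length correction the difference in CD11c+ was 0.38 (adjusted p 0.0183). The correction also made the difference smaller for the other genes called higher in CD11c+, except Slc16a10 (0.56 against 0.48). The corrected difference was 0.74 for Slc27a3, 0.73 for Slc27a1, 0.54 for Slc25a22, 0.53 for Slc35c1 and 0.96 for Slc39a4.

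Slc24a3, an exchanger that moves calcium and potassium out of the cell against sodium, stood at 38.4 and 36.8 CPM in CD11c+, 35.2, 30.1 and 37.8 CPM in NMO CD11c-, and 54.5, 48.5 and 51.1 CPM in controls. All controls were above all NMO libraries. It fell by 0.58 on the log2 scale (SE 0.111, adjusted p 0.0192) in NMO CD11c- and by 0.45 (SE 0.126, adjusted p 0.0497) in NMO CD11c+. The first call was lost without any 1 control (replicates 1, 2 and 3) and without replicate 1 or 2 of NMO CD11c- (adjusted p 0.0609 to 0.106). The second was lost with any 1 library other than NMO CD11c- replicate 2 left out (both CD11c+ replicates, NMO CD11c- replicates 1 and 3, and each of the 3 controls), at adjusted p 0.0504 to 0.147, and under RLE scaling (0.05004), upper quartile scaling (0.0580) and DESeq2 (0.0530).

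Slc26a11, an anion exchanger that carries sulfate, stood at 20.6 and 15.9 CPM in CD11c+, 13.3, 12.9 and 11.9 CPM in NMO CD11c-, and 9.78, 10.5 and 11.9 CPM in controls. Both CD11c+ libraries were the highest. It rose in NMO CD11c+ against control (log2 0.76, SE 0.174, adjusted p 0.0238). In NMO CD11c- the difference was 0.25 (adjusted p 0.443). Slc9a5, a sodium-proton exchanger, stood at 20.4 and 12.9 CPM in CD11c+, 12.7, 14.6 and 14.4 CPM in NMO CD11c-, and 8.68, 10.5 and 7.32 CPM in controls. All NMO libraries were above the controls, with CD11c+ replicate 1 the highest. Slc9a5 rose in NMO CD11c+ (log2 0.90, SE 0.229, adjusted p 0.0357). It was not called in NMO CD11c- against control, but was after the GC and length correction and in a fit of the compared groups alone. Without CD11c+ replicate 1 the calls of Slc26a11 (adjusted p 0.111) and Slc9a5 (log2 0.53, adjusted p 0.206) were lost. They were also lost without control replicate 1, 2 or 3 (0.0529 to 0.0860 for Slc26a11 and 0.0559 to 0.120 for Slc9a5), and Slc9a5 without NMO CD11c- replicate 1 or 3 (0.0572 and 0.0588).

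Mitochondrial carriers of the Slc25 family were the class with the most genes kept, 37 of 47, and 1 was called, in NMO CD11c+ against control. Class medians were 0.07, 0.06 and 0.04 in NMO CD11c- against control, NMO CD11c+ against control and between the subsets. Slc25a22, a mitochondrial glutamate carrier, stood at 66.8 and 55.5 CPM in CD11c+, 46.4, 66.0 and 45.6 CPM in NMO CD11c-, and 36.6, 35.4 and 37.0 CPM in controls. All NMO libraries were above the controls, and NMO CD11c- replicate 2 lay within the CD11c+ range. It rose in NMO CD11c+ (log2 0.75, SE 0.166, adjusted p 0.0209), and the difference in NMO CD11c- was 0.54 (adjusted p 0.0821). The call was lost without CD11c+ replicate 1 (0.61, adjusted p 0.0868) and without control replicate 1, 2 or 3 (0.0705 to 0.0801).

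The window of Slc25a22 at chr7:141435326-141435625 (GRCm38.p6, minus strand), 1 of the windows RefSeq gives for this gene, is shown for its response element core, in capitals, which begins 79 bases before the start site.
Slc25a22: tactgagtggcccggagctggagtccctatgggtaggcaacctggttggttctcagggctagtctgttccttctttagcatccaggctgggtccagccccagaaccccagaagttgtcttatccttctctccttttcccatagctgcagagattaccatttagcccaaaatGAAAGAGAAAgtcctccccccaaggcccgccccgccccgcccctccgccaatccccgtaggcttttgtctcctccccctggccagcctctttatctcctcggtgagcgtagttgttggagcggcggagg

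**Figure D3:**
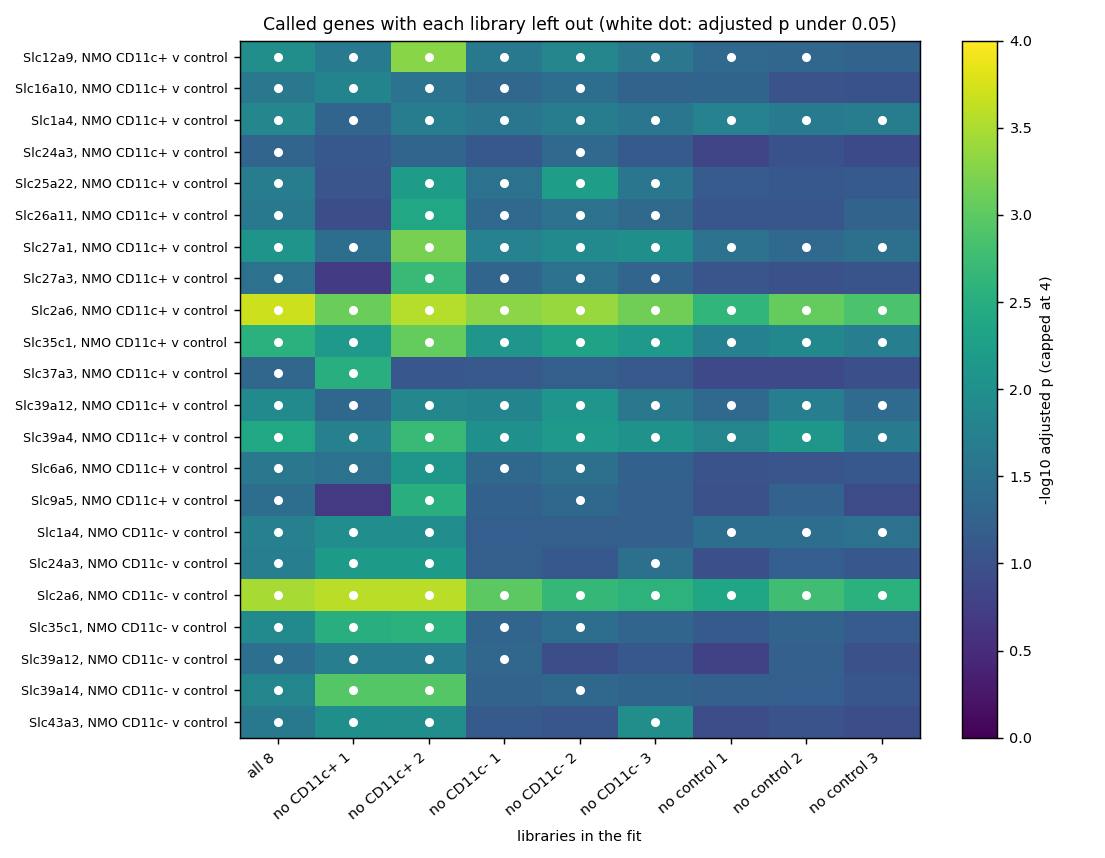
Adjusted p (colour, -log10, edgeR's quasi-likelihood test) of the calls against control with all 8 libraries and with each library left out (columns); rows are genes and comparisons, and a white dot marks an adjusted p under 0.05. Slc2a6 keeps its dot in every column in both comparisons, and Slc1a4, Slc27a1, Slc35c1, Slc39a12 and Slc39a4 keep theirs in NMO CD11c+ against control, while Slc37a3 keeps it without CD11c+ replicate 1 alone.

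Slc25a24, which exchanges ATP-Mg for phosphate across the inner mitochondrial membrane, spread most between groups and was not called. Among the kept genes it is the one with a library at 0. It is named after its values were seen. It had 0.00 and 0.352 CPM in CD11c+ (0 and 2 counts), 5.69, 18.2 and 4.70 CPM in NMO CD11c-, and 1.59, 1.61 and 3.66 CPM in controls. The 3 groups did not overlap. Summed over libraries, its level in NMO CD11c- was 50.2 times that in CD11c+ (95% interval 13.7 to 417), from 191 and 2 counts, and its level in controls was 11.8 times that in CD11c+ (3.11 to 99.5), from 56 and 2 counts. These exact intervals cover counting error only. NMO CD11c- replicate 2 held 121 of the 191 counts, and without it, a choice made after seeing the data like the next 2, the ratio was 27.4. Without CD11c+ replicate 1 the ratios were 26.9 and 6.32. Without CD11c+ replicate 2 the group held 0 counts, and the levels were at least 15.5-fold and at least 3.63-fold higher, taking 3 counts over the group as the limit. With edgeR's quasi-likelihood test the adjusted p was 0.0611 between the subsets, 0.106 for NMO CD11c+ against control and 0.0775 for NMO CD11c- against control, and DESeq2 called it in each. The neutrophil markers had the same order of groups, with NMO CD11c- replicate 2 the highest in both and Ly6g at 0 in both CD11c+ libraries. The 8 monocyte markers did too, at 55.0 and 44.9 CPM in CD11c+, 293, 992 and 202 CPM in NMO CD11c-, and 82.8, 105 and 158 CPM in controls, with Chil3, which neutrophils also express, the largest share in NMO CD11c- and control libraries. The part of neutrophil or monocyte RNA in this result was not tested.

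Several further genes at low levels were set beside the markers of choroid plexus epithelium, a list of 8 added after the values were seen. The genes were also chosen after their values were seen, so a likeness to the list tests nothing. The sum of that list, mostly Ttr and Enpp2, was 1219 and 348 CPM in CD11c+, 511, 306 and 446 CPM in NMO CD11c-, and 600, 972 and 1052 CPM in controls. Slc4a10, a sodium-dependent bicarbonate transporter, stood at 7.76 and 1.59 CPM in CD11c+, 2.39, 1.66 and 3.97 CPM in NMO CD11c-, and 5.5, 8.14 and 8.37 CPM in controls. For Slc4a10, CD11c+ replicate 1 lay within the control range and replicate 2 below every NMO CD11c- library, whereas in the marker sum replicate 1 was above every control and replicate 2 within the NMO CD11c- range. Slc13a4, a sulfate transporter, stood at 8.38 CPM in CD11c+ replicate 1 and at 1.06 to 4.84 CPM in the other 7 libraries. Slc29a4, a monoamine and adenosine transporter, stood at 7.56 CPM there and at 0.753 to 4.5 CPM elsewhere. Slc38a3, Slc4a5 and Slc2a12 were also highest in that library, at 6.95, 4.90 and 4.08 CPM. None of these 6 genes was called, and the part of choroid plexus RNA in their levels was not tested.

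**Figure D4:**
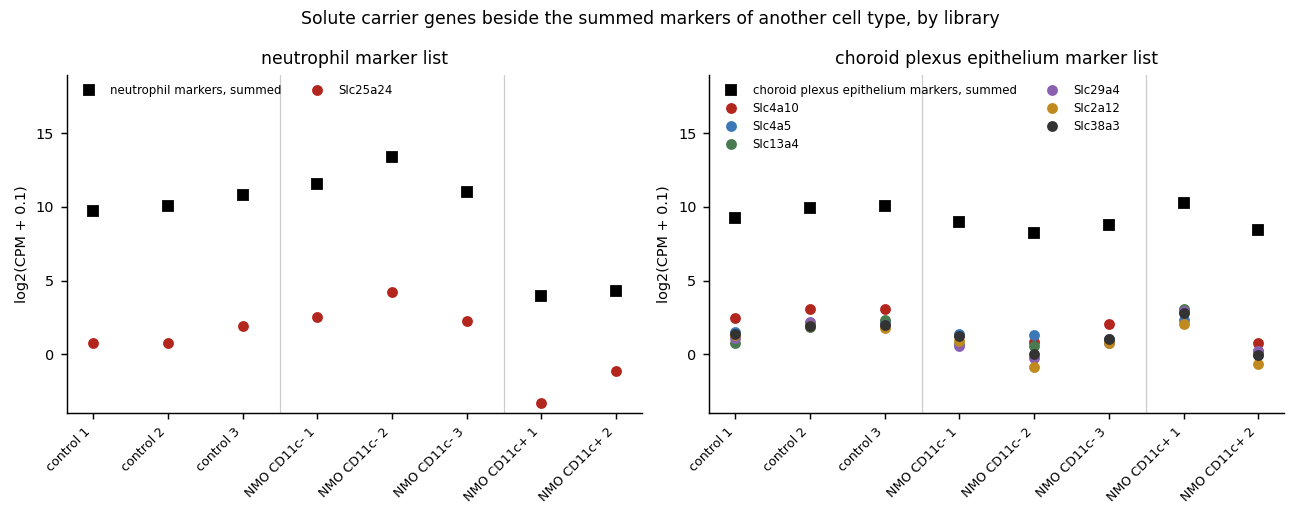
Level (y axis, log2 of CPM + 0.1) in each library (x axis, grouped by control, NMO CD11c- and NMO CD11c+) of the summed neutrophil markers and Slc25a24 (left) and of the summed choroid plexus markers and 6 solute carrier genes (right). Slc25a24 and the neutrophil markers are lowest in the CD11c+ libraries, and the 6 genes are higher in CD11c+ replicate 1 than in replicate 2.

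In the 5 remaining classes no gene was called in any comparison. Of 47 transporters of organic anions, cations and monocarboxylates 12 were kept, with medians of -0.09 and 0.12 against control. The smallest adjusted p was that of Slc16a7, the monocarboxylate transporter MCT2, at 17.4 and 28 CPM in CD11c+, 31.7, 18.8 and 24.4 CPM in NMO CD11c-, and 34.7, 37.5 and 40.1 CPM in controls. All NMO libraries were below the controls, with differences of -0.58 (SE 0.204, adjusted p 0.152) and -0.71 (SE 0.238, adjusted p 0.0822). Of 20 vitamin, choline and heme carriers 10 were kept, with medians of -0.01 and 0.01. There Slc19a1, the reduced folate carrier, differed by -0.36 in NMO CD11c- against control (SE 0.132, adjusted p 0.173).

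Neurotransmitter and vesicular carriers kept 3 of 23 genes, and 9 of the 23 had 0 counts in every library. Slc18a2, the vesicular monoamine transporter VMAT2, had the smallest adjusted p of the class, with -0.86 in NMO CD11c+ against control (SE 0.459, adjusted p 0.245), at 1.02 and 2.29 CPM in CD11c+ and 2.08 to 3.92 CPM in controls, so the groups overlapped. The 1 urea transporter kept, Slc14a1, stood between 2.47 and 5.72 CPM in all libraries, with an adjusted p of 0.361 or more. Among 4 proteins that carry an Slc symbol without being transporters, Slc7a6os had the smallest adjusted p (0.28 in NMO CD11c+ against control, SE 0.122, adjusted p 0.158). An adjusted p above 0.05 does not show that levels were alike.

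Levels were compared between genes as CPM per kilobase of exon, averaged over the 8 libraries. The highest was Slc7a8, the light chain LAT2 of a neutral amino acid transporter, at 150 CPM per kilobase. Next came Slc29a3, a lysosomal nucleoside transporter, at 117, and Slc3a2, the heavy chain that brings LAT2 to the membrane, at 113. The median gene had 7.07 CPM per kilobase, and the lowest, the cystine-glutamate exchanger Slc7a11, had 0.246. The amino acid transporters Slc7a8 and Slc3a2 stood at 168 and 124 CPM per kilobase in controls, 140 and 99.1 in NMO CD11c-, and 140 and 118 in CD11c+. Neither was called, with differences of -0.26 (SE 0.137, adjusted p 0.341) and -0.32 (SE 0.109, adjusted p 0.144) in NMO CD11c- against control.

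**Figure D5:**
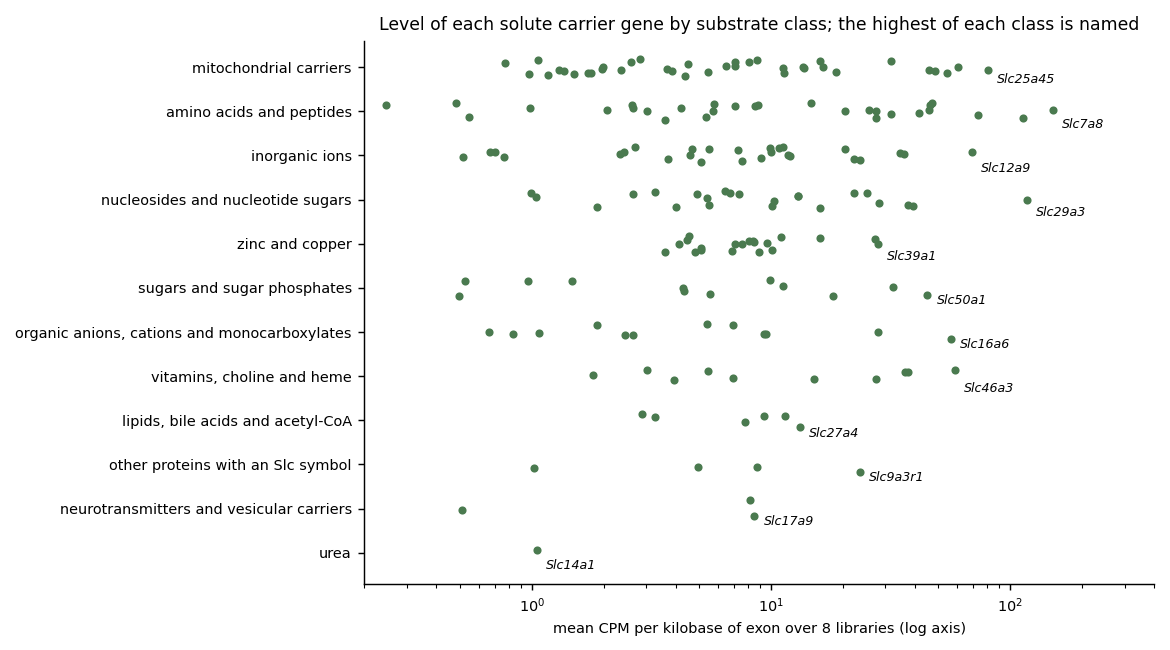
Mean level of each of the 184 solute carrier genes over 8 libraries (x axis, CPM per kilobase of exon, log axis) by substrate class (y axis); each point is 1 gene and the highest of each class is named. Slc7a8 reaches 150 and Slc29a3 117 CPM per kilobase, and the median gene lies at 7.07.

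In each other class the 2 highest genes were as follows. Among mitochondrial carriers they were Slc25a45 at 80.8 and the ADP/ATP carrier Slc25a5 at 60.7 CPM per kilobase. Among ion transporters they were Slc12a9 at 69.2 and the sodium-potassium-chloride cotransporter Slc12a2 at 35.8. Vitamin, choline and heme carriers were led by Slc46a3, a lysosomal protein, at 58.9 and the choline transporter-like Slc44a2 at 37.2. Organic anion and monocarboxylate transporters were led by Slc16a6 at 56.5, whose exons overlap those of Amz2 and Arsg, and the lipocalin 2 receptor Slc22a17 at 27.9. These abundant genes cover several compartments of the cell, from plasma membrane to lysosome and mitochondrion.

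Among sugar transporters the highest were Slc50a1, of the SWEET family, at 45.1 and Slc37a2, of the endoplasmic reticulum, at 32.4 CPM per kilobase. Among nucleotide sugar transporters Slc35c2 at 39.2 followed Slc29a3. Slc39a1, a zinc importer, at 28 and Slc31a2, a copper transporter, at 27.3 led their class. Lipid carriers had Slc27a4 at 13.2 and Slc10a3 at 11.4, the latter sharing exonic sequence with Ubl4a. Vesicular carriers had Slc17a9, which loads ATP into vesicles, at 8.53 and Slc18b1, a polyamine carrier, at 8.19. Urea was represented by Slc14a1 at 1.05. The scaffold protein Slc9a3r1 at 23.5 and Slc7a6os at 8.76 led the proteins that are not transporters. None of these genes other than Slc12a9 was called, and 25 of the 184 genes have exons that overlap another coding gene.

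The sum over a class was compared between groups, and not all of the 12 classes are listed. Amino acid transporters summed to 4079 to 4532 CPM in CD11c+, 3733 to 4082 in NMO CD11c- and 3998 to 4254 in controls, so the groups overlapped. Mitochondrial carriers summed to 1844 to 1996, 1913 to 2010 and 1792 to 1850 CPM in the same order. Ion transporters summed to 2357 to 2438, 2104 to 2404 and 2129 to 2168 CPM, and sugar transporters to 553 to 685, 540 to 562 and 491 to 532 CPM. The sugar sum was above all controls in each NMO library. It holds the called Slc2a6, at 20.1 to 25.9 CPM in NMO CD11c- and 4.32 to 7.07 CPM in controls. The rise of Slc2a6 is larger than the gap between 540 CPM in NMO CD11c- and 532 CPM in controls. The separation in NMO CD11c- therefore does not show a shift of the class without that gene. The ion sum was above all controls in both CD11c+ libraries, and the mitochondrial sum was so in each NMO CD11c- library. Zinc and copper transporters summed to 845 to 927, 933 to 1003 and 912 to 950 CPM. Lipid carriers summed to 195 to 226, 195 to 203 and 177 to 193 CPM, above all controls in each NMO library, and that sum holds the called Slc27a1 and Slc27a3. The sums of nucleoside and nucleotide sugar, vitamin, and organic anion transporters overlapped the controls in both NMO groups. These sums were not tested, and no background share of separated sums is given.

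Transporters of the same superfamily that carry other symbols were read from a separate list of 72 genes, of which 69 were matched and 54 tested. Against control 2 were called higher in NMO CD11c- and 6 in NMO CD11c+, with 0 lower in either, and 0 were called between the subsets. These are 3.70% and 11.1% of the 54, beside 3.72% and 10.2% of all genes tested called in either direction and 3% and 6.85% called higher. Their medians were 0.08, 0.11 and 0.01, beside 0.00, 0.01 and 0.01 over all genes tested. Mfsd12, which imports cysteine into lysosomes and melanosomes, stood at 121 and 97.1 CPM in CD11c+, 68.8, 75.4 and 71.0 CPM in NMO CD11c-, and 51.4, 51.0 and 44.9 CPM in controls. The 3 groups did not overlap. It rose by 0.55 (SE 0.110, adjusted p 0.0241) in NMO CD11c- and by 1.15 (SE 0.120, adjusted p 0.000469) in NMO CD11c+ on the log2 scale.

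Mfsd7a rose in both NMO groups, by 0.79 (adjusted p 0.0200) in NMO CD11c- and 0.79 (adjusted p 0.0187) in NMO CD11c+. In NMO CD11c+ the synaptic vesicle protein Sv2a rose by 0.87 (adjusted p 0.0145), the lysosomal Sidt2 by 0.55 (0.0173), Tmem104 by 0.51 (0.0497) and the lysosomal lysophospholipid transporter Spns1 by 0.44 (0.0438). Of 4 listed partner proteins of transporters 3 were tested, and none was called.

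At the edge of the count rule, the kept genes nearest the limit were Slc5a5, Slc25a29, Slc26a1 and Slc6a9, whose second highest library held 20, 21, 22 and 22 counts. Just outside it were Slc22a15, Slc7a4, Slc35g1 and Slc4a3, with 18, 17, 15 and 15 counts. Slc22a15 had 1 and 1 counts in CD11c+, 18, 61 and 15 in NMO CD11c-, and 4, 13 and 14 in controls, and was thus left out on its second highest library. Of the 184 genes, 164 had at least 20 counts in all 8 libraries and 3 were kept through 1 group alone.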

How the data were processed

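RNA from 8 sorted microglia libraries was sequenced. The values used are raw gene counts deposited by the authors. Per the submitters' processing notes, STAR 2.3.11, HTSeq 0.5.4, edgeR 3.12.0 and GRCm38 were used; strand setting and annotation release: not given in the sources used here. All columns were used (0 left out). Symbols, coordinates and exon lengths came from GENCODE M21 (40340 identifiers matched, 1048 did not).

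All genes passing filterByExpr (minimum count 10) entered 1 edgeR 4.0.16 quasi-likelihood fit of 8 libraries (R 4.3.3, TMM scaling, no covariate), with Benjamini-Hochberg adjustment over 12002 genes. The depth, 4943207 to 9246061 counts per library, limits precision for genes near 20 counts. SE is the fitted standard error of a log2 fold change. The fit was run on simulated counts, whose outcome is not given here. Those counts held neither the GC trend of CD11c+ replicate 1 nor a batch, so they cannot show how the fit handles either. Alternatives were other scalings, filters, DESeq2 1.42.0, the compared groups alone, a GC and length correction and each library left out.

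The members and gene lists were chosen with earlier results of these data known. Named genes are those called, the 2 highest per kilobase and, in classes without a call, the smallest adjusted p of each substrate class, those nearest the 20-count limit, and called genes of the other-symbol list. Slc25a24, Slc7a11 and the genes set beside the choroid plexus list fall outside these rules and were named after their values were seen. Slc7a6os was reclassified, and the choroid plexus and immediate-early lists were added, after the data were seen. Of the microglial marker list, 1 gene is not reported here.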

Additional observations from a re-analysis of the deposited data

How the results depend on the processing

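Counts of called solute carrier genes moved by more than 1.5 times under several settings, given here as higher and lower against 11 and 4 in NMO CD11c+ against control, 4 and 3 in NMO CD11c- against control, and 0 and 0 between the subsets. Without a low-count filter they were 13 and 14, 9 and 8, and 5 and 3, beside 9.98%, 5.46% and 3.34% of all genes. DESeq2 gave 16 and 7, 8 and 4, and 1 and 1 (13.3%, 5.8% and 2.23%). A fit of the compared groups alone gave 6 and 2, 15 and 11, and 0 and 0 (5.29%, 10.5% and 0.0426%). The correction for GC and length gave 17 and 9, 16 and 7, and 0 and 0 (13%, 7.55% and 0.6%). Upper quartile scaling gave 12 and 2 in NMO CD11c+ against control (10.4%). The same correction without CD11c+ replicate 1, chosen after seeing the data, gave 13 and 4, 19 and 12, and 0 and 0 (8.11%, 11.2% and 0.0402%), and without CD11c+ replicate 2, chosen likewise, 20 and 13, 19 and 12, and 5 and 6 (17.9%, 11.2% and 4.73%). Leaving out 1 library at a time gave 4 to 33 higher and 2 to 19 lower in NMO CD11c+ against control, 1 to 14 and 0 to 10 in NMO CD11c- against control, and 0 to 31 and 0 to 17 between the subsets. The cause of these moves was not tested.

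Over the fold changes of the 17 called genes under all settings, 781 kept their direction and side of the threshold, 89 lost a call, 48 gained one and none reversed. Beyond the losses given in the report, these calls in NMO CD11c+ against control ended. A fit of the compared groups alone ended those of Slc16a10 (adjusted p 0.0861), Slc24a3 (0.0887), Slc26a11 (0.0675), Slc27a3 (0.0672), Slc37a3 (0.109), Slc6a6 (0.0810) and Slc9a5 (0.0879). No low-count filter ended that of Slc6a6 (0.0692), and upper quartile scaling that of Slc37a3 (0.0571). The correction without CD11c+ replicate 1 ended those of Slc24a3 (0.0745), Slc25a22 (0.0839), Slc26a11 (0.115), Slc27a3 (0.222) and Slc9a5 (0.190), and without CD11c+ replicate 2 those of Slc12a9 (0.0508), Slc25a22 (0.1002), Slc37a3 (0.103) and Slc39a12 (0.0744). No paired analysis was possible because no label links a library of one group to a library of another, and replicates were numbered in accession order.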
